A study of Mus musculus with 12 samples.

Results

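The change in translational efficiency on adding dexamethasone (DEX) to lipopolysaccharide (LPS) was measured per gene in RAW264 cells, a mouse macrophage line. Translational efficiency (TE) is the ratio of ribosome footprints to mRNA, and its change is the footprint change minus the mRNA change, on the log2 scale. The comparison takes 8 of the 12 libraries of the series: 2 of mRNA and 2 of ribosome-protected fragments (RPF, the footprints) with LPS, and the same with LPS and DEX. The 4 basal libraries stay out of the fit and are given only as a reference level. Of 9621 genes listed in the deposited values, 8354 were tested, those with a mean of at least 10 reads both over the 4 mRNA libraries and over the 4 footprint libraries.

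Cells grown for 24 h were exposed for 30 min to LPS alone, at 100 ng/ml, or to the same dose of LPS with 10 µM DEX. Every group, the basal one included, was incubated with cycloheximide at 100 µg/ml before extraction. Polyadenylated mRNA and footprints were sequenced on an Ion PGM from 2 independent biological replicates per treatment. The cells are 1 established line, and the vehicle for DEX is not given in the sources used here.

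LPS is a component of the outer membrane of Gram-negative bacteria that macrophages sense through Toll-like receptor 4, which starts NF-kB and MAP kinase signalling and the transcription of cytokines. DEX is a synthetic glucocorticoid: it binds the glucocorticoid receptor, a transcription factor that raises genes such as the MAP kinase phosphatase Dusp1 and the clock gene Per1. Ribosome profiling counts mRNA stretches covered by ribosomes, so a gene can gain or lose footprints because its mRNA changes or because each mRNA carries more or fewer ribosomes, and TE separates these cases. Cycloheximide holds cytosolic ribosomes on mRNA but does not act on mitochondrial ribosomes, which translate the mitochondrially encoded mRNAs.

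The 8 libraries held 821946 to 2529666 reads, and the 2 footprint libraries with LPS were the smallest, at 829415 and 821946 reads against 1653342 and 1833560 with LPS + DEX. Across genes, the rank correlation (Spearman) ranged from 0.951 to 0.98 within mRNA, from 0.948 to 0.983 within footprints and from 0.678 to 0.782 between the 2 kinds of library. All 12 macrophage markers checked were listed, and their summed level was 6015 to 6447 CPM (reads scaled to the total of a library) in the 4 mRNA libraries, where the treatments overlap. In footprints it was 7881 and 7803 CPM with LPS and 7276 and 7542 CPM with LPS + DEX, which do not overlap, with 1 marker called higher and 2 lower; its part in the results was not tested. Of 27 markers of other cell types, 2 were listed: Krt7 was at 2.43 CPM or less in all 8 libraries, and footprints of the collagen Col3a1 were at 65.1 and 60.8 CPM with LPS and 134 and 128 with LPS + DEX. In bulk libraries, fewer cells with a transcript and less RNA per cell cannot be told apart.

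Adding DEX moved TE of few genes and mRNA of fewer. TE was higher in 14 genes (0.168% of those tested) and lower in 37 (0.443%), by limma at a Benjamini-Hochberg adjusted p under 0.05, which is the meaning of "called" throughout. Footprints were called in 350 genes (4.19%), 176 higher (2.11%) and 174 lower (2.08%), and mRNA in 4 genes (0.0479%), all higher: Dusp1, Tnfaip3, Per1 and the syndecan Sdc4. No mRNA was called lower (limma), while 449 mRNAs in both directions had an unadjusted p under 0.05. The TE changes of the 51 called genes (0.61% of those tested) were almost all footprint changes: all 14 with higher TE also had footprints called higher, and 35 of the 37 with lower TE had footprints called lower. TE uses the same footprint values, so this is a description of the calls and no independent support. The exceptions were Sdc4 and the transcription factor Cebpb, and Sdc4 was the only gene of the 51 with a called mRNA change. In the other direction, 14% of the genes with called footprints had a called TE change. The precision differs by design. The fit takes 1 residual spread per gene from both assays, and a TE change uses 4 group means against 2 for a footprint change. The median standard error (SE) was therefore 0.33 for a TE change against 0.24 for a footprint change (log2). The smallest TE change called was 0.76 in size, and 565 genes had an unadjusted p under 0.05 for TE (limma). With 2 replicates per group the counts rest on single libraries. Calls of higher TE numbered 8 without mRNA LPS replicate 1 or 2, 7 without RPF LPS replicate 2 and 5 without RPF LPSDEX replicate 1 or 2, and calls of lower TE numbered 21 without mRNA LPS replicate 2, 17 without RPF LPS replicate 2 and 15 without RPF LPSDEX replicate 2. The 4 mRNA calls became 54 without mRNA LPS replicate 2 and 25 without mRNA LPSDEX replicate 2, and the 350 footprint calls became 190 without either RPF LPS library and 114 or 73 without RPF LPSDEX replicate 1 or 2.

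**Figure D1:**
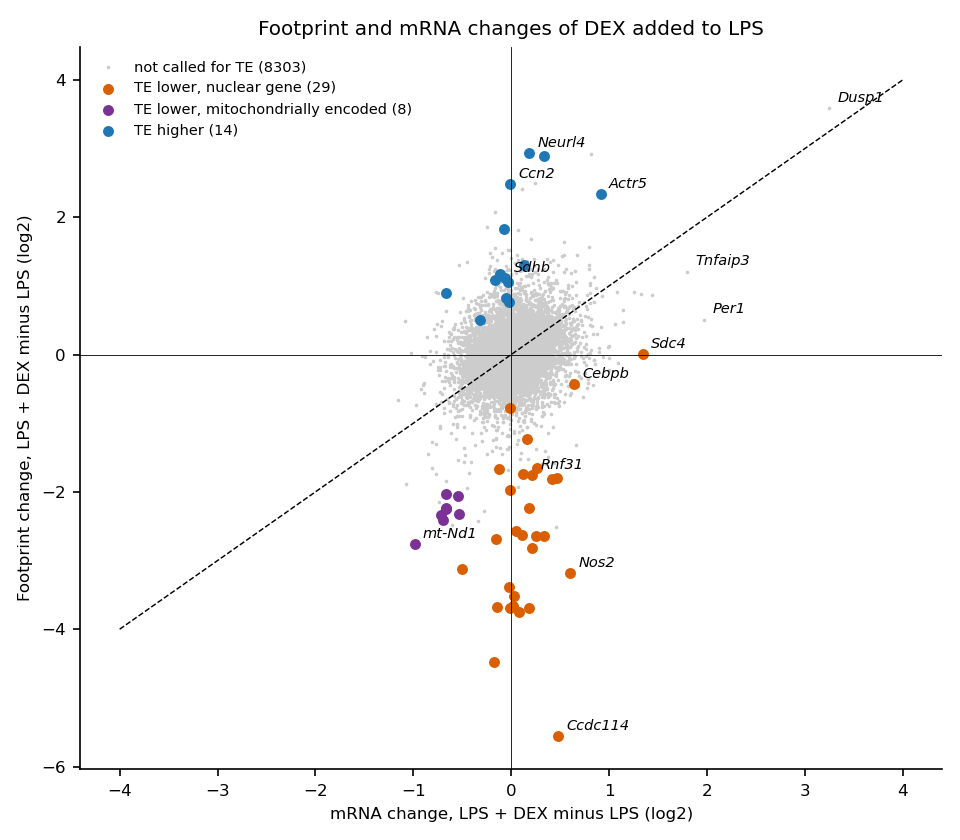
Footprint change (vertical axis) against mRNA change (horizontal axis), both LPS + DEX minus LPS on the log2 scale, for the 8354 genes tested; each point is 1 gene and the dashed line marks equal changes, that is no TE change. The 14 genes with higher TE and the 37 with lower TE lie far above or below the line while most stay near 0 on the mRNA axis, and Dusp1 lies close to the line at 3.25 for mRNA and 3.59 for footprints.

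Calls were steadier for some genes than for others. Of the 51 genes, 17 remained called without each of the 8 libraries in turn. They include Neurl4, Ccn2 and Sdhb with higher TE, and Ccdc114, Arhgap6, Gabre, Pcdhgc4, Rfxank, Nos2, Gm20594, Zfhx2, Cdan1, Rnf31, Slc44a1, Ttn and Dok1 among those with lower TE. Of these, Arhgap6, Zfhx2, Rnf31 and Slc44a1 were not called with all 12 libraries in the fit. Ccdc114, Arhgap6 and Nos2 had fewer than 10 reads in both footprint libraries with LPS + DEX. They passed the filter through their LPS footprints, so their steadiness is no support. Of the 51, 0 changed sign in any of the 16 alternative fits that tested them. These fits reuse the libraries that chose the genes. Changing only the filter, adding the replicate block or adding the basal libraries leaves the estimate itself as it was. The unchanged sign is therefore no independent support. Overlapping annotation limits some of the 51 genes. In RefSeq 43 of the 51 were found and 23 of these overlap another gene, and whether reads were counted by strand is not given in the sources used here. Cdan1 overlaps Stard9, Rfxank overlaps Nr2c2ap, Fdft1 overlaps Ctsb, Chpt1 overlaps Sycp3, and Pcdhgc4 lies in the protocadherin gamma cluster, whose members share exons. Gabre overlaps the microRNA genes Mir224 and Mir452, Vwa5b2 overlaps Mir1224 and Actr5 overlaps Mir3474. The values of all these genes are therefore uncertain as values of 1 gene, and the part of overlapping genes in them was not tested.

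The 4 genes whose mRNA rose with DEX differ in how far their footprints rose. Their promoters are shown because these are the only 4 mRNAs called. In the gene lists used below, 3 of them are on the glucocorticoid list. The list of NF-kB targets and inhibitors holds 2, Sdc4 among them. The sequences are the 250 bases before the RefSeq start (build GRCm38.p6), 5′ to 3′ on the gene's strand; for Tnfaip3 and Per1, which have 2 starts in the table, the start farthest upstream was used. Dusp1 is at chr17:26508473-26508722 (minus strand), Tnfaip3 at chr10:19015411-19015660 (minus), Per1 at chr11:69098699-69098948 (plus) and Sdc4 at chr2:164443189-164443438 (minus). Capitals mark matches to 4 of the 5 motifs searched on both strands: the cAMP response element TGACGTCA, the E-box CACGTG, the AP-1 element TGANTCA and the NF-kB consensus.
Dusp1: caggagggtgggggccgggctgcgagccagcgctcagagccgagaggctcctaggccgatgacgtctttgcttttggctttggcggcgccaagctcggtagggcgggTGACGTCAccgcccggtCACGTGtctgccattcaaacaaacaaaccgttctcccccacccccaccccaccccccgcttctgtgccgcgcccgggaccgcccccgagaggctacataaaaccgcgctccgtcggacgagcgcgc
Tnfaip3: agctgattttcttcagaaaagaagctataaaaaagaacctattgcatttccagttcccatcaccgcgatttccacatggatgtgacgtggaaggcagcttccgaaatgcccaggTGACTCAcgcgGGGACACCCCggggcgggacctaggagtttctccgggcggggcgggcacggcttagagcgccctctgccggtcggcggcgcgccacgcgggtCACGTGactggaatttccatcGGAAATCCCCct
Per1: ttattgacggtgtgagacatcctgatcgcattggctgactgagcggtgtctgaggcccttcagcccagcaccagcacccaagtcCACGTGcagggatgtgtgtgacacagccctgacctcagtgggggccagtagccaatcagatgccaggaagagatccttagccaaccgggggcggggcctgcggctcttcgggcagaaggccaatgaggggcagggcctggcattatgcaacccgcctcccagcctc
Sdc4: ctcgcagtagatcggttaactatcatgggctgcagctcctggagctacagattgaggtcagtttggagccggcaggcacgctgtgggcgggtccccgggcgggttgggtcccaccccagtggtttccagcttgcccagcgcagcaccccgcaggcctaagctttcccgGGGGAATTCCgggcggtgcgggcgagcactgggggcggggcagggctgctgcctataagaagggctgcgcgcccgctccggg
The E-box stands in 3 of the 4 windows, 126 bases before the start in Dusp1, 33 in Tnfaip3 and 166 in Per1. The cAMP response element stands in Dusp1 at 143 bases, and the AP-1 element in Tnfaip3 at 136. NF-kB consensus matches lie in Tnfaip3 at 125 and 12 bases and in Sdc4 at 82. The letters AGAACA, the half-site of the glucocorticoid receptor element, are in none of the 4. Over all 32851 windows of the same length in the table, the cAMP response element was found in 1.55%, the E-box in 6.02%, the AP-1 element in 6.75%, the half-site in 16.08% and the NF-kB consensus in 3.9%. These matches describe letters in the windows and are not evidence of binding.

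Dusp1 (ENSMUSG00000024190), which encodes a phosphatase that switches off MAP kinases, had mRNA at 41.4 and 54.9 CPM with LPS and at 441 and 483 CPM with LPS + DEX. Its footprints were at 16.9 and 18.3 CPM with LPS and at 223 and 221 CPM with LPS + DEX. The treatments do not overlap in either assay, and footprints and mRNA rose side by side, by 3.59 and 3.25 on the log2 scale. Its TE change was 0.34 (95% interval -0.18 to 0.85; limma adjusted p = 0.898).

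Sdc4 (ENSMUSG00000017009), a cell-surface heparan sulfate proteoglycan, was the opposite case. Its mRNA was at 76.2 and 102 CPM with LPS and at 245 and 206 CPM with LPS + DEX, a rise of 1.34 (log2). Its footprints were at 144 and 146 CPM with LPS and at 162 and 130 CPM with LPS + DEX, so the treatments overlap in footprints only. TE fell by 1.34 ± 0.24 (SE, log2; limma adjusted p = 0.00866), and the change was between -1.54 and -1.14 without each library in turn, not called without RPF LPS replicate 2, without RPF LPSDEX replicate 2 or with all 12 libraries in the fit.

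Per1 (ENSMUSG00000020893), a repressor of the circadian clock, had mRNA at 32.5 and 65.5 CPM with LPS and at 193 and 176 CPM with LPS + DEX. Its footprints were at 27.7 and 34.1 CPM with LPS and at 53.2 and 36.5 CPM with LPS + DEX. Both assays separate the treatments, the footprints by a small gap. The mRNA rose by 1.97 and footprints measured 0.51 higher (log2; adjusted p = 0.341), and the TE change of -1.47 (95% interval -2.25 to -0.68) was not called (limma adjusted p = 0.104). Without mRNA LPS replicate 2 it was -1.96 and called (adjusted p = 0.014), and without mRNA LPS replicate 1 it was -0.97 (adjusted p = 0.412). Tnfaip3 (ENSMUSG00000019850), the ubiquitin-editing inhibitor of NF-kB also known as A20, had mRNA at 57.3 and 117 CPM with LPS and at 273 and 302 CPM with LPS + DEX. Its footprints went from 38.6 and 45 CPM to 107 and 88.9 CPM. Both rose, by 1.8 and 1.21 (log2), and the TE change was -0.59 (95% interval -1.29 to 0.12).

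Cebpb (ENSMUSG00000056501), a transcription factor of inflammatory and glucocorticoid-responsive genes whose mRNA carries a regulatory upstream reading frame, was the other gene with lower TE and no called footprint change. Its mRNA was at 233 and 256 CPM with LPS and at 428 and 340 CPM with LPS + DEX, and its footprints at 289 and 243 and at 206 and 187 CPM. The treatments do not overlap in either assay, and the 2 assays lie in opposite directions, at 0.64 for mRNA and -0.43 for footprints (log2), neither called by itself. TE fell by 1.07 ± 0.21 (SE, log2; limma adjusted p = 0.0133). It was not called without mRNA LPS replicate 1, RPF LPS replicate 1 or either RPF LPSDEX library, nor with all 12 libraries in the fit, and ranged from -1.24 to -0.91 without each library in turn.

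**Figure D2:**
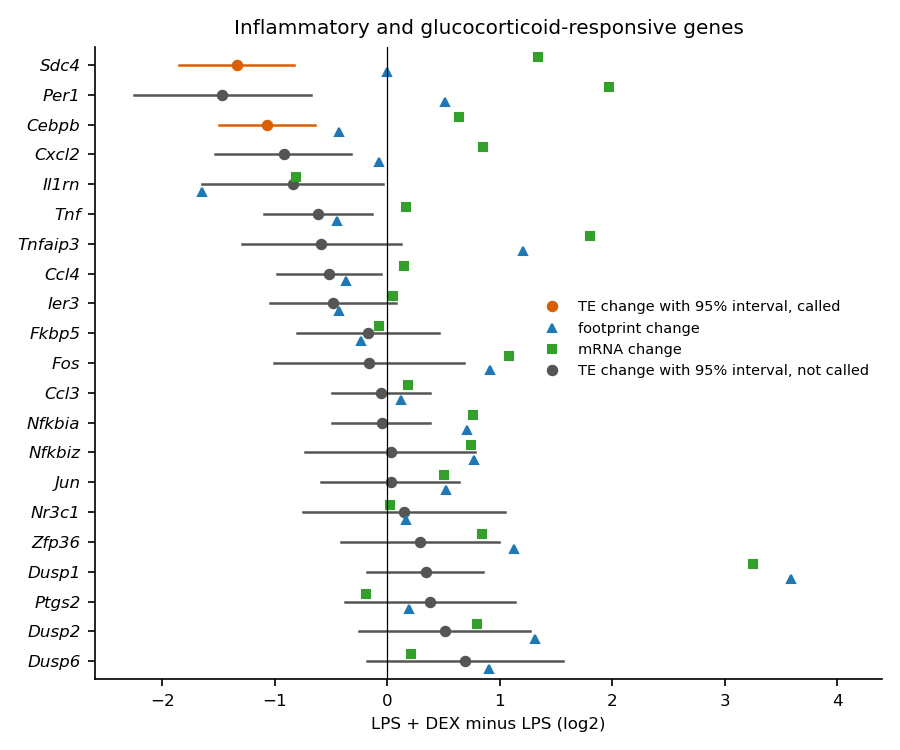
Changes of 21 inflammatory and glucocorticoid-responsive genes, LPS + DEX minus LPS on the log2 scale; circles are TE changes with 95% intervals from limma (orange where called), triangles footprint changes and squares mRNA changes. Sdc4 and Cebpb are the 2 called, and Dusp1 has the highest mRNA and footprint changes with a TE interval of -0.18 to 0.85.

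Among 12 cytokines and chemokines tested 0 were called for TE, where 0.61% of all genes were, so the count does not set them apart. They had a median TE change of -0.48 against 0.00 over all genes, and 8 of the 12 were below 0. Tnf (ENSMUSG00000024401), the cytokine TNF, had footprints at 1267 and 1263 CPM with LPS and at 1057 and 813 CPM with LPS + DEX, and mRNA at 950 and 1419 and at 1486 and 1152 CPM. Its footprints separate the treatments and its mRNA does not. The TE change was -0.62 (95% interval -1.1 to -0.14; limma adjusted p = 0.474). The neutrophil chemokine Cxcl2 measured -0.92 for TE (95% interval -1.53 to -0.32; adjusted p = 0.268), with mRNA at 171 and 250 CPM against 390 and 355 CPM and footprints at 226 and 226 against 284 and 162 CPM. Here the mRNA separates the treatments and the footprints overlap. The value rests on single footprint libraries: it was -1.32 and called without RPF LPSDEX replicate 1 (limma adjusted p = 0.0454), and -0.52 without RPF LPSDEX replicate 2 (adjusted p = 1.0). The macrophage chemokines Ccl4 and Ccl3 measured -0.52 and -0.06.

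On the lists of feedback genes that follow, Sdc4 alone had a called TE change. Since 0.61% of all genes tested were called, counts of 0 do not set these lists apart. Among 29 NF-kB targets and inhibitors tested, 1 was called lower (Sdc4), with a median TE change of -0.22. Nfkbia (ENSMUSG00000021025), which encodes IkBα, the inhibitor that holds NF-kB in the cytosol, had footprints at 500 and 523 CPM with LPS and at 859 and 813 CPM with LPS + DEX. Footprints rose by 0.71 and mRNA measured 0.76 higher (log2; adjusted p = 0.0837), and the TE change was -0.05 (95% interval -0.49 to 0.38). Among 20 mRNA decay factors 0 were called for TE. Zfp36, which encodes tristetraprolin and destabilises cytokine mRNAs, had a TE change of 0.29, with footprints rising by 1.13 (log2). Of 10 MAP kinase feedback genes 0 were called for TE, and Dusp2 measured 0.51 and Dusp6 0.69. In the list of glucocorticoid-induced genes, which includes the receptor, 0 of 18 were called, with a median of 0.01. The receptor gene Nr3c1 measured 0.15 (95% interval -0.75 to 1.05) and the co-chaperone Fkbp5 -0.17 (95% interval -0.8 to 0.46). Tsc22d3, the glucocorticoid-induced leucine zipper gene, was not tested, with 4.83 to 11.5 CPM of mRNA and 2.41 to 7.64 CPM of footprints. Il1rn, which encodes the interleukin-1 receptor antagonist, had footprints at 188 and 192 CPM with LPS and at 64.1 and 55.6 CPM with LPS + DEX. They fell by 1.65 (log2), with mRNA at 113 and 47.9 against 47.4 and 36.3 CPM and a TE change of -0.84 (95% interval -1.65 to -0.04; limma adjusted p = 0.691). This TE value rests on the mRNA with LPS: it was -1.45 and called without mRNA LPS replicate 1 (limma adjusted p = 0.0317), and -0.23 without mRNA LPS replicate 2 (adjusted p = 0.928). The intervals of these genes are wide, so a TE change that was not called is not shown to be absent.

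The 13 protein-coding genes of the mitochondrial genome, which encode subunits of respiratory complexes I, III, IV and V, were the gene list with the most calls. All 13 had fewer footprints with DEX (13 of 13 called), by a median of -2.15 (log2). Their mRNA was called in 0 of the 13, with a median of -0.67, but in 11 without mRNA LPSDEX replicate 2 (median -1.13) and in 3 without mRNA LPS replicate 2 (median -0.98), all lower. TE was lower in 8 of 13, with a median of -1.51, against 0.443% of all genes called lower. In complex I, TE fell for mt-Nd1 (-1.77), mt-Nd5 (-1.51) and mt-Nd6 (-1.79), and it was not called for mt-Nd2 (-0.97), mt-Nd3 (-1.17), mt-Nd4 (-1.42, adjusted p = 0.0521) and mt-Nd4l (-1.29). In complexes III to V, TE fell for the cytochrome b gene mt-Cytb (-1.72), the cytochrome oxidase genes mt-Co1 (-1.58), mt-Co2 (-1.56) and mt-Co3 (-1.36) and the ATP synthase gene mt-Atp6 (-1.63), and it was not called for mt-Atp8 (-0.6).

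For the complex I gene mt-Nd1 (ENSMUSG00000064341), footprints were at 227 and 239 CPM with LPS and at 39.3 and 28.4 CPM with LPS + DEX. Its mRNA was at 5332 and 3897 CPM with LPS and at 1588 and 3323 CPM with LPS + DEX. Both assays separate the treatments, and the 2 mRNA libraries with LPS + DEX differ from each other more than the footprint libraries do. TE fell by 1.77 ± 0.33 (SE, log2; limma adjusted p = 0.0098). The cytochrome oxidase gene mt-Co1 (ENSMUSG00000064351) had footprints at 2394 and 2537 CPM with LPS and at 585 and 457 CPM with LPS + DEX. Its mRNA was at 16526 and 11389 CPM and at 6317 and 11779 CPM. The footprints separate the treatments and the mRNA overlaps, with replicate 2 of each treatment almost equal.

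Summed over all 13 mitochondrially encoded genes, footprints were 0.868% and 0.948% of the reads with LPS, 0.217% and 0.19% with LPS + DEX and 0.411% and 0.365% in basal cells. The summed mRNA was 6.285% and 4.21% of the reads with LPS, 2.301% and 4.333% with LPS + DEX and 6.029% and 7.692% in basal cells. So the footprint shares of the 3 treatments do not overlap, basal cells lie between the others, and mRNA LPSDEX replicate 1 has the lowest mRNA share of the 6 libraries. That library touches every TE value of these genes. TE was called in all 13 without it, with a median of -1.9, and in 8 without mRNA LPSDEX replicate 2, with a median of -1.11. TE was called in 0 of the 13 without mRNA LPS replicate 2 (median -1.26), RPF LPS replicate 2 (-1.41) or RPF LPSDEX replicate 2 (-1.4), in 4 without RPF LPSDEX replicate 1, in 0 with all 12 libraries in the fit (median -1.51) and in 1 with limma-voom. The footprint calls numbered 12 or 13 in these fits. How far footprints on these mRNAs follow mitochondrial translation under cycloheximide was not tested.

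**Figure D3:**
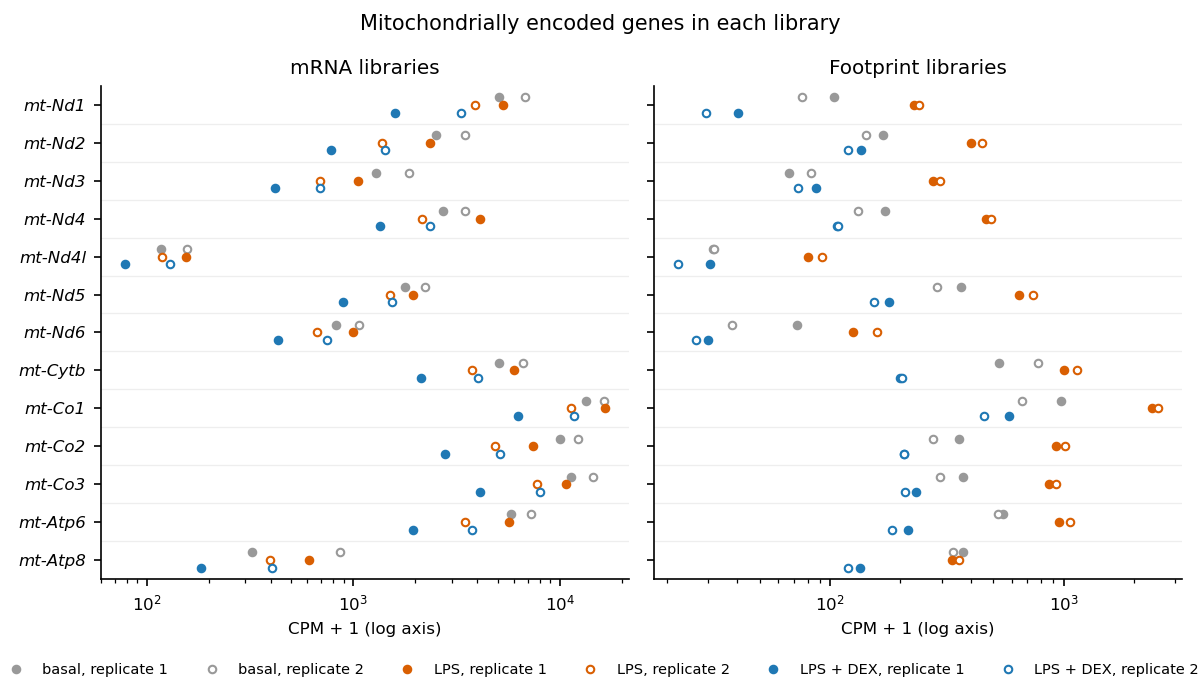
Level of each of the 13 mitochondrially encoded genes in every library, as CPM + 1 on a log axis, for mRNA (left) and footprints (right); filled circles are replicate 1 and open circles replicate 2. Footprints with LPS + DEX lie below those with LPS for all 13 genes, while the mRNA of LPS + DEX replicate 2 lies close to that of LPS replicate 2.

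Of 78 nuclear subunits of the respiratory complexes tested, 3 were called higher for TE (3.85%, against 0.168% of all genes tested) and 0 lower, with a median of 0.00. Their summed footprints were 2.181% and 2.17% of the reads with LPS and 2.102% and 2.129% with LPS + DEX. Sdhb (ENSMUSG00000009863), the iron-sulfur subunit of complex II, the respiratory complex with no mitochondrially encoded subunit, had footprints at 134 and 135 CPM with LPS and at 296 and 286 CPM with LPS + DEX, and mRNA at 406 and 380 and at 395 and 358 CPM. The footprints separate the treatments by a wide gap and the mRNA overlaps. TE rose by 1.17 ± 0.18 (SE, log2; limma adjusted p = 0.00217), and by 1.1 to 1.24 without each library in turn. The complex I subunits Ndufb7 and Ndufb2 rose by 1.18 ± 0.23 and 1.26 ± 0.27 (SE, log2; limma adjusted p = 0.0155 and 0.0346). Footprints of Ndufb7 were at 68.7 and 62.1 CPM with LPS and at 153 and 174 CPM with LPS + DEX, and those of Ndufb2 at 35 and 29.2 and at 67.1 and 71.5 CPM. These 2 were not called without mRNA LPS replicate 2, RPF LPS replicate 2 or either RPF LPSDEX library, with 0.98 to 1.38 for Ndufb7 and 1.13 to 1.38 for Ndufb2, which was also not called without mRNA LPS replicate 1, without mRNA LPSDEX replicate 2 or with limma-voom. Of the factors that express the mitochondrial genome, 0 of 23 were called for TE (median 0.05), and of the mitochondrial ribosomal proteins 0 of 82 (median 0.06). With 0.61% of all genes tested called, these counts do not set them apart.

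The other genes with higher TE have no common list. The largest changes were in Neurl4, Dchs1 and Ccn2. Neurl4 (ENSMUSG00000047284), a centriolar neuralized-like protein, had footprints at 256 and 93.7 CPM with LPS and at 1499 and 945 CPM with LPS + DEX, with mRNA at 73.9 and 86.5 and at 90.9 and 90.8 CPM. The atypical cadherin Dchs1 (ENSMUSG00000036862) had footprints at 289 and 118 CPM and at 1686 and 1132 CPM. Its mRNA was far lower, at 16.55 and 18.89 and at 24.51 and 20.83 CPM. For both genes the treatments do not overlap in either assay, and the 2 footprint libraries with LPS differ by over 100 CPM. TE rose by 2.75 ± 0.42 for Neurl4 and by 2.56 ± 0.4 for Dchs1 (SE, log2; limma adjusted p = 0.00194 and 0.0024), and Dchs1 was not called without RPF LPSDEX replicate 1 (1.91 to 3.2 without each library in turn).

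Ccn2 (ENSMUSG00000019997), a secreted matricellular protein also called connective tissue growth factor, had footprints at 24.1 and 14.6 CPM with LPS and at 110 and 109 CPM with LPS + DEX. With mRNA at 30.1 and 33.4 and at 36.4 and 27 CPM, only the footprints separate the treatments. TE rose by 2.49 ± 0.36 (SE, log2; limma adjusted p = 0.00127). Actr5, an actin-related subunit of the INO80 chromatin remodeller, had footprints at 2567 and 2052 CPM with LPS and at 10436 and 12839 CPM with LPS + DEX, and at 2958 and 176 CPM in the 2 basal libraries. The basal footprint replicates of Actr5 differ by a larger factor than the treatments do. Its mRNA was far lower, at 46.69 and 42.61 CPM with LPS and at 59.69 and 120.5 CPM with LPS + DEX. This mRNA separates the treatments too, with a change of 0.91 (log2) that was not called. Its TE change was 1.42 ± 0.3 (limma adjusted p = 0.028), and it was called in 2 of 8 fits without a library (0.92 to 1.92).

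Other rises were smaller. Footprints of E2f4, a transcription factor that represses cell cycle genes, were at 36.2 and 32.9 CPM with LPS and at 81.7 and 75.8 CPM with LPS + DEX, and TE rose by 1.28. Birc5, which encodes survivin, an inhibitor of apoptosis that acts in mitosis, went from 62.7 and 49.9 to 123 and 112 CPM of footprints, with a TE change of 1.1, and was the 1 called of 38 genes on the cell cycle list, which does not hold E2f4. The membrane-traffic GTPase Arf1 went from 226 and 247 to 435 and 406 CPM, with a TE change of 0.88. In these 3 genes the footprints do not overlap between treatments, which carries no test since the genes were chosen by calls on these footprints. The mRNA measured -0.11 (E2f4), -0.04 (Birc5) and -0.05 (Arf1) on the log2 scale. These calls rest on single libraries: of the 8 fits without a library, E2f4 was called in 4 (1.15 to 1.4), Arf1 in 2 (0.8 to 0.97) and Birc5 in 1 (0.94 to 1.26). The remaining genes with higher TE were the basement membrane collagen Col4a3 (1.55), the phosphatidylcholine synthesis enzyme Chpt1 (0.82) and 2 pseudogenes in RefSeq, Gm7367 (1.9) and Rps12-ps3 (0.78), whose reads may be shared with near-identical genes. Of the 8 fits without a library, Col4a3 was called in 3 (1.11 to 2.0), Chpt1 in 2 (0.67 to 0.97), Gm7367 in 6 (1.74 to 2.05) and Rps12-ps3 in 2 (0.68 to 0.89).

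**Figure D4:**
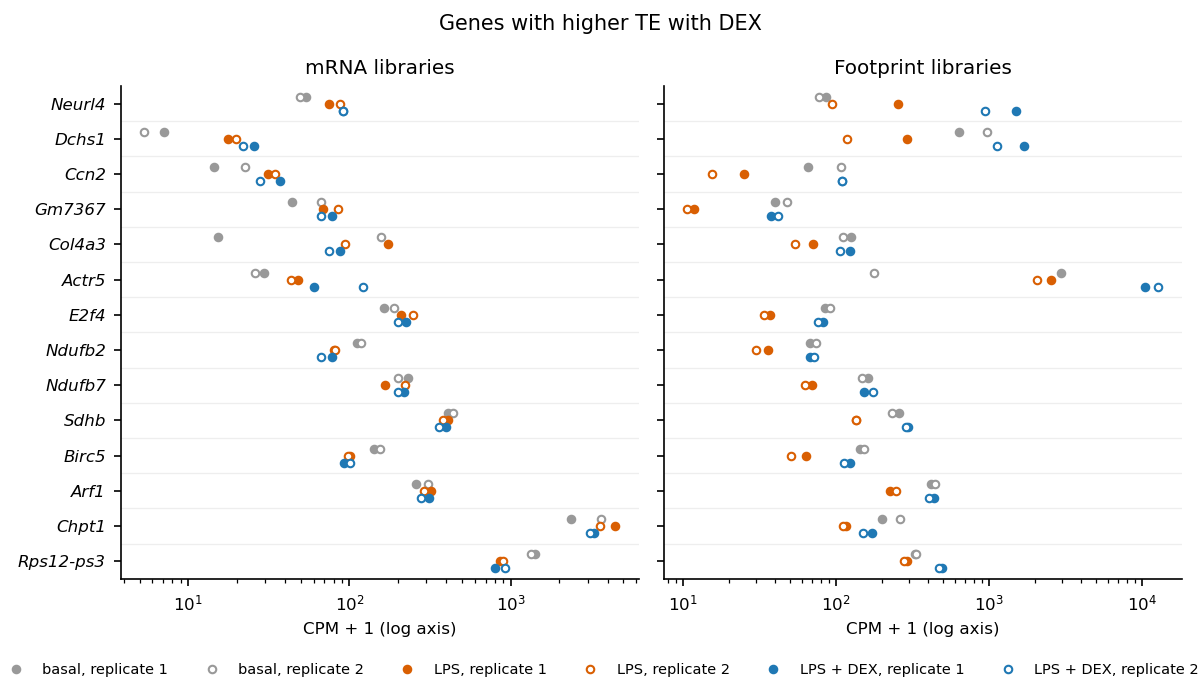
mRNA (left) and footprints (right) of the 14 genes with higher TE, as CPM + 1 on a log axis, in each of the 12 libraries; filled circles are replicate 1 and open circles replicate 2. Footprints with LPS + DEX lie to the right of those with LPS in all 14 genes, and the basal libraries of Actr5 are far apart. The genes were chosen by calls on these footprints, so the separation carries no test.

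Of the 37 genes with lower TE, 29 are nuclear, and most of these stood higher in footprints than in mRNA under LPS. With LPS, 27 of the 29 had a footprint mean above the mRNA mean in CPM, against 51% of all genes tested, and their median ratio was 4.37 against 1.02. Among the 37, 14 had a mean mRNA under 20 CPM (37.8%, against 22.5% of genes tested), and 0 of the 14 with higher TE did. Since the LPS footprints helped to choose these genes, the ratio is a description with no test. Ccdc114, Arhgap6, Nos2, Hdc, Amhr2, Csmd2, Shank3 and Ppfia4 had fewer than 10 reads in both footprint libraries with LPS + DEX. They passed the filter through their LPS footprints, so their separation between treatments is no support either. In these 8 libraries, 3 reads correspond to 1.186 CPM in the deepest and 3.65 CPM in the shallowest, so several levels below rest on few reads.

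The lowest TE change was in Ccdc114 (ENSMUSG00000040189), which encodes a docking protein of ciliary outer dynein arms. It had footprints at 82 and 88.8 CPM with LPS, and 1 and 2 reads (0.605 and 1.09 CPM) with LPS + DEX. The mRNA of Ccdc114 was at 5.91 and 2.64 CPM with LPS and at 6.72 and 5.32 CPM with LPS + DEX. Footprints were thus high in both LPS libraries and at 2 reads or fewer in both others, while mRNA overlaps. The pooled footprints were 99.2-fold higher with LPS (141 against 3 reads; exact 95% interval 33.3 to 487, counting error only). The fitted TE change of -6.04 (limma adjusted p = 5.52e-05) depends on the 1 added to the CPM, and is -5.34 with 2 added. Basal footprints were at 6.11 and 0 CPM.

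Nos2 (ENSMUSG00000020826), the inducible nitric oxide synthase, had footprints at 28.9 and 52.3 CPM with LPS and at 3.02 and 3.82 CPM with LPS + DEX, with mRNA at 5.91 and 3.51 and at 7.91 and 7.09 CPM. Hdc, which encodes histidine decarboxylase, the enzyme that makes histamine, had footprints at 22.9 and 46.2 CPM with LPS and at 3.02 and 0.545 CPM (1 read) with LPS + DEX. In both genes all LPS libraries exceed all LPS + DEX libraries in footprints. Both passed the filter through their LPS footprints, with 5 and 7 reads (Nos2) and 5 and 1 (Hdc) with LPS + DEX. This separation is therefore no support for the calls. TE fell by 3.79 ± 0.59 for Nos2 (SE, log2; limma adjusted p = 0.00225) and the TE change of Hdc was -3.83 ± 0.76 (adjusted p = 0.0189). Hdc was called in 3 of 8 fits without a library, from -4.52 to -3.14.

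Rnf31 (ENSMUSG00000047098), the catalytic subunit of the linear ubiquitin ligase complex that feeds NF-kB signalling, had footprints at 137 and 152 CPM with LPS, 39.3 and 45.3 with LPS + DEX and 18.3 and 21 in basal cells. Its mRNA was at 44.9 and 51 and at 60.5 and 51 CPM, so the footprints separate the treatments and the mRNA does not. TE fell by 1.96 ± 0.27 (SE, log2; limma adjusted p = 0.001). The adaptor Dok1, a negative regulator of tyrosine kinase signalling, had footprints at 148 and 152 CPM with LPS and at 51.4 and 38.2 CPM with LPS + DEX, and TE fell by 1.85 ± 0.27. Rfxank, a subunit of the RFX complex on MHC class II promoters, had footprints at 92.8 and 87.6 CPM and at 9.68 and 4.91 CPM, and TE fell by 3.54 ± 0.49.

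S100a4 encodes a small calcium-binding protein. Its footprints were at 1014 and 1016 CPM with LPS and at 544 and 643 CPM with LPS + DEX, near the 622 and 625 CPM of basal cells. The mRNA was at 635 and 634 and at 581 and 679 CPM, and overlaps. TE fell by 0.76 ± 0.17 (SE, log2; limma adjusted p = 0.0377), the smallest called change, which remained called in 1 of 8 fits without a library (-0.88 to -0.64). Fdft1, squalene synthase, was the 1 called of 21 cholesterol synthesis genes, with footprints at 218 and 164 CPM and at 76.2 and 84.5 CPM and a TE change of -1.38. The choline transporter gene Slc44a1 had footprints at 229 and 240 CPM and at 52.6 and 66.5 CPM, with a TE change of -1.95, and the metabolic kinase gene Pask measured -1.55. Fdft1 was called in 4 of 8 fits without a library (-1.59 to -1.18) and Pask in 1 (-1.87 to -1.22).

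Titin (Ttn) and nebulin (Neb), giant proteins of the sarcomere, had TE changes of -1.92 and -2.62. Footprints of Ttn were at 32.6 and 40.2 CPM with LPS and at 9.68 and 12 CPM with LPS + DEX, with mRNA at 108 and 81.7 and at 121 and 106 CPM, so the footprints alone separate the treatments. Gabre, a subunit of the GABA-A receptor, went from 92.8 and 92.5 to 5.44 and 7.09 CPM of footprints (TE -3.68 ± 0.49), and the postsynaptic scaffold Shank3 from 21.7 and 26.8 to 4.23 and 2.18 CPM (-2.73 ± 0.5). The replicates of Gabre are close in both treatments. Col18a1, a basement membrane collagen, went from 47 and 146 to 9.07 and 3.27 CPM (-3.54 ± 0.66), and Arhgap6, a GTPase-activating protein, from 104 and 80.3 to 3.63 and 2.73 CPM (-4.29 ± 0.53). The replicates of Vwa5b2 stood far apart, with footprints at 158 and 1340 CPM with LPS and at 54.4 and 21.8 CPM with LPS + DEX. Its TE change of -3.88 ± 0.87 was called in 1 of 8 fits without a library (-5.42 to -2.35). Other nuclear genes with lower TE were Pcdhgc4 (-3.69), Gm20594 (-3.36), Amhr2 (-3.03), Csmd2 (-2.97), Ppfia4 (-2.9), Zfhx2 (-2.62), Lrrd1 (-2.53), Mpdz (-2.41) and Cdan1 (-2.27). Csmd2, Ppfia4, Mpdz and Lrrd1 were called in 2 of the 8 fits without a library and Amhr2 in 3, with -3.72 to -2.23 for Csmd2, -3.14 to -2.67 for Ppfia4, -2.62 to -2.2 for Mpdz, -3.13 to -1.94 for Lrrd1 and -3.47 to -2.59 for Amhr2. Neb was called in 7 of these fits (-3.06 to -2.17), Col18a1 in 5 (-4.34 to -2.73) and Shank3 in 4 (-3.09 to -2.37).

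**Figure D5:**
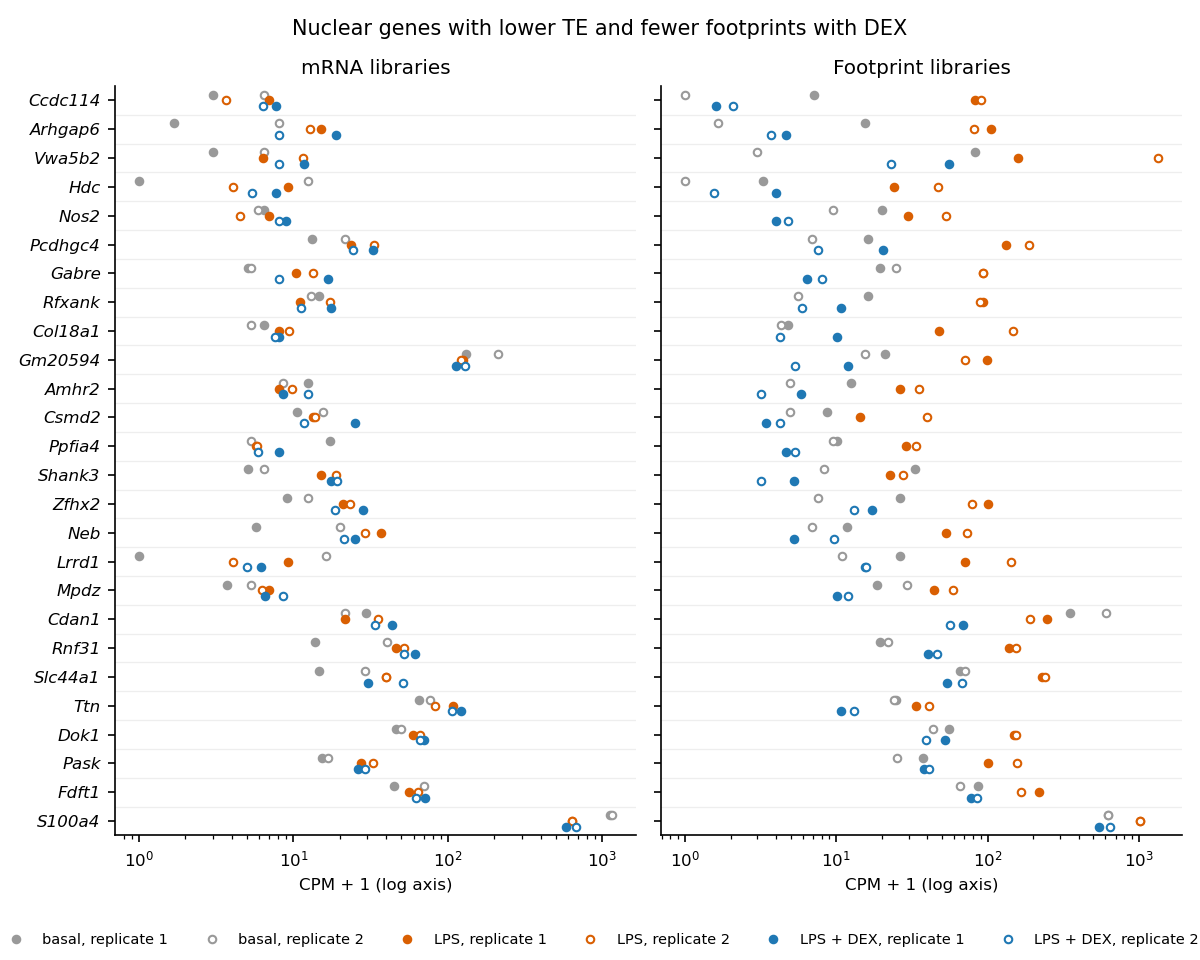
mRNA (left) and footprints (right) of 26 nuclear genes with lower TE, Sdc4 and Cebpb left out, as CPM + 1 on a log axis, in each of the 12 libraries; filled circles are replicate 1 and open circles replicate 2. In all 26 the footprints with LPS lie to the right of those with LPS + DEX, and in most the basal footprints lie nearer to LPS + DEX. The genes were chosen by calls on these footprints, so the separation carries no test.

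The basal footprints, which took no part in the fit, show on which side a gene stood without treatment. On the log2 scale their mean lay nearer to LPS + DEX than to LPS in 11 of the 14 genes with higher TE and in 30 of the 37 with lower TE, against 54.8% of all genes tested. The exceptions were Actr5, Neurl4 and Rps12-ps3 with higher TE, and Cdan1, Nos2, Sdc4, Shank3, Ttn, mt-Atp6 and mt-Cytb with lower TE. On the CPM scale the counts were 10 of 14 and 33 of 37, against 54.5%: Dchs1 joins the exceptions, and Nos2, Ttn and mt-Atp6 leave them. The calls were made on the LPS libraries, so those libraries had to be far from LPS + DEX, and this count carries no test. The 2 footprint libraries with LPS are also the shallowest, and the part of depth in this was not tested.

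Of 35 gene lists, 27 had 0 calls, and 15 of 888 list genes were called in all (1.69%), against 0.61% of all genes tested. The 8 mitochondrially encoded genes are among the 15. The lists were chosen with earlier results of these data known, so this share, like those of single lists, carries no test. With so low a share over all genes, 0 calls in a single list do not set it apart from the rest. Cytosolic ribosomal proteins, whose mRNAs carry the terminal oligopyrimidine motif through which mTOR signalling sets their translation, had 0 calls in 83 genes and a median TE change of -0.01, from -0.47 to 0.71. With median-of-ratios scaling 1 was called higher. Translation initiation factors (0 of 37, median -0.01), aminoacyl-tRNA synthetases (0 of 20, median -0.11), proteasome subunits (0 of 40, median -0.05), endoplasmic reticulum chaperones (0 of 21, median -0.11) and splicing factors (0 of 46, median 0.00) had no call either. Of 21 integrated stress response genes, Cebpb was the 1 called, and the median was -0.19. Nob1, an endonuclease of ribosome maturation, had footprints at 92.8 and 82.7 CPM with LPS, 99.2 and 100 with LPS + DEX and 456 and 508 in basal cells. Its LPS and LPS + DEX values lie close together and far below the basal ones, and its TE change was 0.19 (95% interval -0.3 to 0.67).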

How the data were processed

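Per the deposited files, the authors gave 1 value per Ensembl gene and library, which the values themselves show to be reads scaled to the library total (CPM) plus 1: after subtracting 1, 100% of values are whole multiples of 1 read within 0.1 read. The sources used here do not name the aligner, genome build or annotation. Listed genes hold 97.4% to 98.9% of a library's reads, and 9521 of 9621 have a symbol. Limma 3.58.1 (R 4.3.3, trend) was fitted to log2(CPM + 1) of the 8 libraries with 4 groups, two-sided, with Benjamini-Hochberg adjustment over all genes tested. The fit was checked on simulated counts with 1 spread for all genes and libraries. That check cannot show how errors are controlled in these data, where the spread differs between genes. Fold changes understate low genes. Whether same-numbered libraries were paired cannot be told from the values, and the main fit treats them as unpaired. Named genes were the 12 highest and 12 lowest called TE changes, the 4 largest called per list, a set of known genes and the 13 mitochondrial ones; the other called genes were added after their values were seen. Members and lists were chosen with earlier results of these data known. Remarks that treatments separate or overlap describe 2 against 2 libraries and carry no test. The share of all genes that separate was not counted. Precision is limited by 821946 to 2529666 reads per library. The limma intervals use the spread pooled over both assays and both treatments and moderated across genes. They do not show the spread of the 2 replicates of a single group. Alternatives changed the added constant, scaling, filter, libraries in the fit, replicate block, each library left out and, after seeing the data, limma-voom. The values of 1 called gene are not reported here.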

Additional observations from a re-analysis of the deposited data

How the results depend on the processing

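Of the 51 called TE changes, 0 changed sign in the 16 alternatives where they were tested, 13 were called in every alternative that tested them, 33 with limma-voom on recovered reads and 19 with all 12 libraries in the fit. The sign count is no independent support, since these fits reuse the libraries that chose the genes. With a mean of at least 50 reads per assay, 9 genes were called higher and 16 lower, of fewer genes tested. With all 12 libraries, 9 were higher and 10 lower, and footprint calls went from 350 to 224. Limma-voom, chosen after seeing the data, gave 7 higher, 208 footprint calls and 8 mRNA calls. Without a filter 7 mRNAs were called. The cause of these shifts was not tested. Leaving out 1 library at a time gave 5 to 20 genes higher, 15 to 40 lower, 73 to 421 footprint calls and 4 to 54 mRNA calls.

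The replicate block, with the replicate number as a factor, gave 15 higher, 38 lower, 303 footprint and 4 mRNA calls. Of the 51 TE calls, 49 remained, without Birc5 and Lrrd1. The deviations of same-numbered libraries correlated with r from -0.217 to 0.067 across genes, lowest between mRNA LPS and mRNA LPSDEX. With 2 replicates per group these values cannot show whether same-numbered libraries were paired. With crossed numbers in mRNA LPSDEX, added after seeing the data, the calls were 14 higher, 44 lower, 394 for footprints and 7 for mRNA.

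TE changes of 8 genes that were not called turned sign in 18 estimates made without 1 library. Their ranges (log2) over the 8 such fits were: Ccl3 -0.22 to 0.1, Fkbp5 -0.35 to 0.02, Fos -0.63 to 0.3, Jun -0.43 to 0.49, Nfkbia -0.37 to 0.26, Nfkbiz -0.57 to 0.62, Nr3c1 -0.17 to 0.46, and Zfp36 -0.28 to 0.86. A planned negative binomial count test was not run. Low footprint depth with LPS limits genes near 3 reads there. In called genes such as Ccdc114 (1 and 2 reads) and Hdc (5 and 1 reads) the few footprint reads are with LPS + DEX.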
